A study of Saccharomyces cerevisiae with 15 samples.

Results

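The genes described here are 100 budding yeast genes whose transcripts were lower in the β-carotene strain C0 than in the original strain BY47419 and also lower than in the evolved strain C7-143. They were chosen from their measured levels. Levels are in CPM, a gene's read count over its library's total scaled to 1000000 reads, and a strain's value is log2(mean CPM + 1) over its 3 libraries. Among the 4958 genes of 5980 in the table with a mean of at least 10 CPM in BY47419 and in C7-143, each gene was scored by the smaller of 2 differences, BY47419 minus C0 and C7-143 minus C0, and the 100 highest scores were taken. They are 2.02% of the genes that could be scored, and 477 genes in all had a score above 0. Every statement below on C0 against BY47419, or on C7-143 against C0, therefore describes the choice of the genes and is given without a test.

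Transcripts were measured by RNA sequencing in 15 libraries of 5 Saccharomyces cerevisiae strains, 3 libraries per strain, from cultures kept at 30 °C on YPD, a rich medium, with 20 g/L glucose. All strains are of the S288C background, carry the alleles his3Δ1 and leu2Δ0 and also met15Δ0 and ura3Δ0, and express the genome-editing nuclease spCas9-NG. BY47419 is labelled as the original strain. C0 is the first strain made to produce β-carotene, and it adds HMG1, an HMG-CoA reductase, and the carotenoid enzymes CrtE, CrtYB and CrtI to the nuclease. C3-06 and C5-63 are labelled as processed strains of the evolution and C7-143 as its final strain, and they carry the same added proteins as C0. Whether each evolved strain is more than 1 clone, and whether the libraries come from separate cultures, is not given in the sources used here, so p-values measure the spread between these libraries, which may be technical.

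The libraries held 16144808 to 21586409 reads on genes. HMG1 averaged 67.2 CPM in BY47419, 1950 CPM in C0, 1070 CPM in C3-06, 601 CPM in C5-63 and 623 CPM in C7-143. URA3 and MET17 (the gene of the met15 allele) had at most 1 read per strain. HIS3, listed with the allele his3Δ1, had reads in every strain, with means of 29.4 CPM in BY47419, 33.4 CPM in C0, 109 CPM in C3-06, 143 CPM in C5-63 and 106 CPM in C7-143. GAL80, the repressor of the galactose genes, averaged 134 CPM in BY47419 and had 0 reads in the other strains; the labels used here do not mention it. Large-subunit ribosomal protein genes held 0.228% to 0.294% of the reads in BY47419, 0.296% to 0.32% in C0, 1.3% to 1.79% in C3-06, 1.94% to 2.24% in C5-63 and 2.75% to 3.44% in C7-143. A list of 29 Msn2-Msn4 stress genes held 10.2% to 10.6%, 8.21% to 8.77%, 3.19% to 4.46%, 1.99% to 2.5% and 1.19% to 1.42% of the reads in the same strains. Genes marking MATa cells held 0.0353% to 0.146% of the reads of a library, those marking MATα cells 0.00609% to 0.0131%, and sporulation genes 0.223% to 0.797%. These shares differed between the strains, as the members' levels did, and their part in the members' levels was not tested. In RNA from whole cultures, fewer cells of a type and less RNA per cell cannot be told apart.

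Several of the cellular systems to which the members belong meet in the growing, dividing yeast cell. In late G1 the transcription factors SBF (Swi4-Swi6) and MBF (Mbp1-Swi6) switch on genes for budding, DNA synthesis and histones, and later in the cycle the mitotic cyclins drive nuclear division. Glycolysis turns glucose into pyruvate, the proton pump Pma1 energises the plasma membrane for nutrient uptake, and the desaturase Ole1 supplies the unsaturated fatty acids of all membranes. The sterols and carotenoids made in these strains are themselves built from isoprenoid units of the mevalonate pathway, and no member is in the list of that pathway's genes.

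The difference between C0 and BY47419 was small for most members, and that between C7-143 and C0 covered a much wider range. The median difference of C0 minus BY47419 was -0.24 on the log2(mean CPM + 1) scale over the members and 0.11 over all genes that could be scored. The median difference of C7-143 minus C0 was 0.67 over the members and 0.05 over all genes that could be scored. C0 held at most 0.5 times the BY47419 mean for 3 members, RKI1, OLE1 and MGA1, and at most 0.8 times for 33. Of the 4958 genes that could be scored, 25 and 227 were that low. For 88 members the difference between BY47419 and C0 was the smaller one and set the score, and for the other 12 it was the difference between C7-143 and C0. All 3 C0 libraries lay below all BY47419 libraries for 54 members (10.4% of 5814 genes with enough reads for a test), and all 3 C7-143 libraries above all C0 libraries for 92 (47.7%). These counts follow from the choice of the members.

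**Figure D1:**
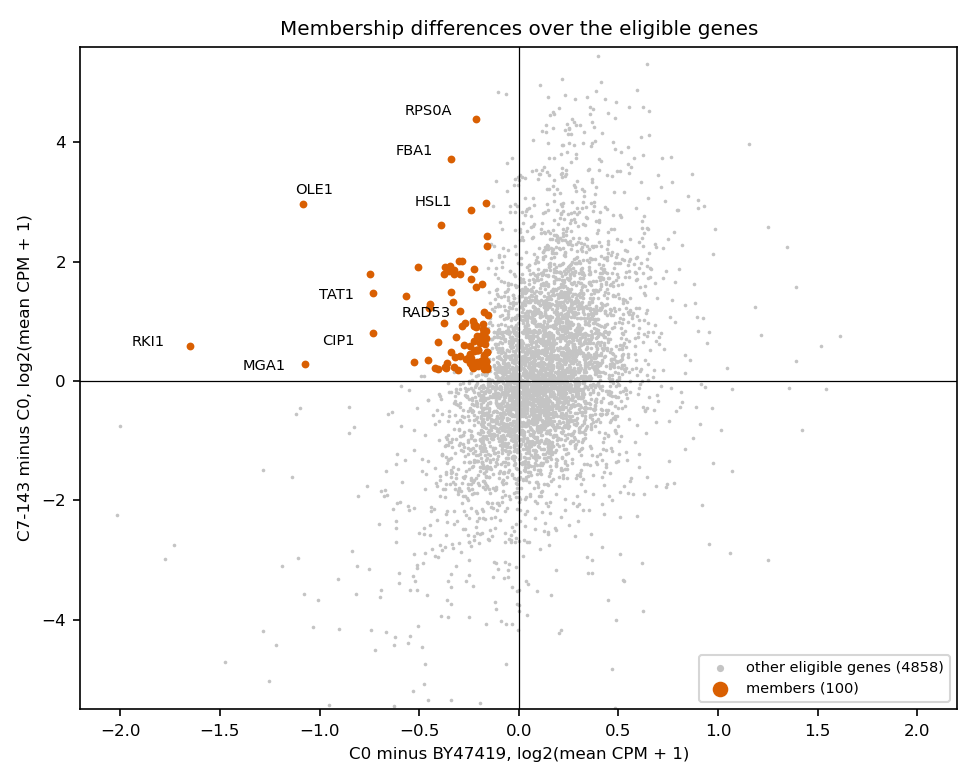
Difference of C0 minus BY47419 (horizontal) against that of C7-143 minus C0 (vertical), each on the log2(mean CPM + 1) scale, for the genes that could be scored; orange points are the 100 members, grey points the other genes, and 21 genes lie beyond the axes. The members fill a narrow band left of 0, while their heights run from 0.19 to RPS0A at 4.39.

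The word restored holds only for some of the members. The C7-143 mean lay between 0.8 and 1.25 times the BY47419 mean for 41 members, above 1.25 and below 2 times for 31, at least 2 times for 26 and below 0.8 times for 2, RKI1 and MGA1. Of the 4958 genes that could be scored, 1032, 896, 1372 and 1658 fell in the same classes. A C7-143 mean of at least 2 times BY47419 was thus no more frequent among the members. These classes use library totals. The members' median log2 difference of C7-143 minus BY47419 was 0.44 on that scale and 0.16 with TMM scaling, described below. With TMM factors more members lay below 0.8 times BY47419, among them GLY1 and GIS4 (log2 fold change -0.50 for each). By library totals, C7-143 held the highest mean of the 5 strains for 53 members, C5-63 for 33, BY47419 for 8 and C3-06 for 6. Over the genes that could be scored, these strains were highest for 1210, 1368, 982 and 542 genes, and C0 for 856. The size of the difference between C7-143 and C5-63 depends on the scaling. The members' median log2 difference of C7-143 minus C5-63 was 0.06 with library totals and 0.23 with TMM factors. OLE1 is counted under C5-63 here but stood 0.16 ± 0.26 (SE) higher in C7-143 with TMM factors. C0 held the lowest mean for 80 members, C3-06 for 18 and C5-63 for 2, SDA1 and YNL190W. Over the genes that could be scored, C0 was lowest for 379, C3-06 for 379 and C5-63 for 107. All 3 C0 libraries lay below all BY47419 and all C7-143 libraries for 52 members, among 77 such genes of the 4958. The threshold falls where scores change little: ASE1 and RTS2, the last members by rank, had scores of 0.157 and 0.155, and POL3 and YFR035C, the first genes outside, both had 0.154.

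The members stood at these levels in different strains. The following counts of libraries that do not overlap use the C0, BY47419 or C7-143 libraries that chose the members, so nothing is read from them against the share of all genes in brackets. All 3 C3-06 libraries lay above all C0 libraries for 58 members (48.9%) and below them for 5 (30.8%). All 3 C5-63 libraries lay above all C0 libraries for 83 members (54.0%) and below them for 0 (30.1%). C7-143 lay wholly above C5-63 for 30 members (17.0%) and wholly below it for 17 (48.2%), and wholly above BY47419 for 64 (51.4%) and wholly below it for 2 (35.1%). In mean CPM, C3-06 stood above C0 for 82 members and C5-63 above C0 for 97. Of the 4958 genes that could be scored, 2839 and 3011 did so.

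**Figure D2:**
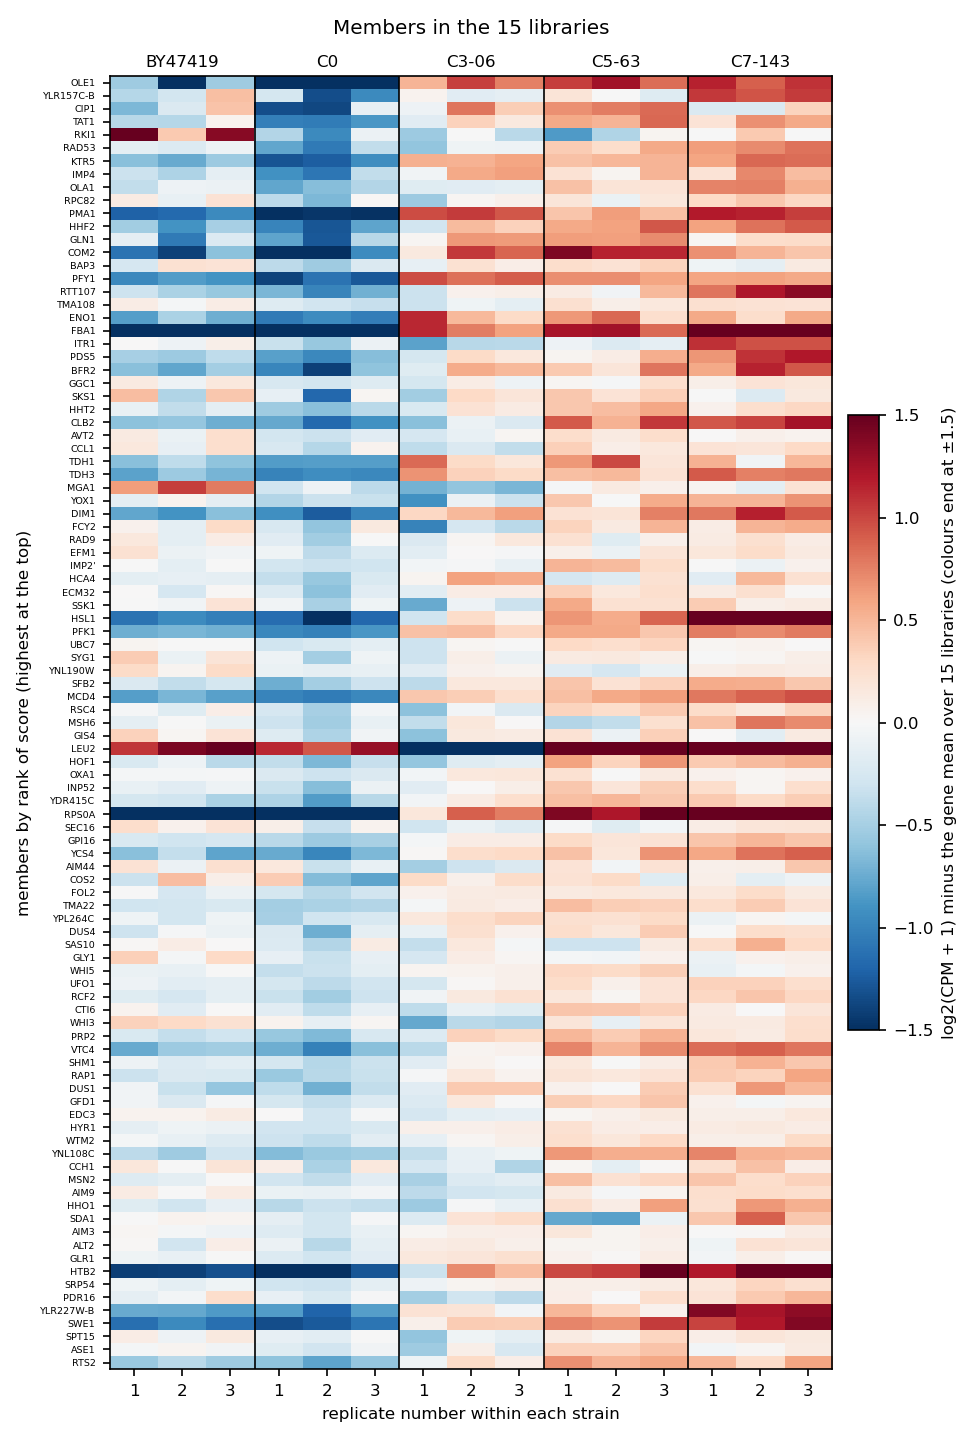
99 of the members in rows, by score with the highest at the top, and the 15 libraries in columns; colour gives log2(CPM + 1) minus the gene's mean over the libraries, with colours ending at ±1.5. The BY47419 and C0 columns are mostly blue and the C5-63 and C7-143 columns mostly red, LEU2 is dark blue in the 3 C3-06 libraries, and RKI1 is reddest in BY47419.

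The replicates of C0 did not sit at 1 level. Relative to the C0 mean, the median member stood at -0.01, -0.14 and 0.10 in the 3 C0 libraries, against 0.25, 0.19 and 0.26 in the BY47419 libraries. It stood at 0.24, 0.45 and 0.44 in C3-06, at 0.64, 0.54 and 0.67 in C5-63, and at 0.61, 0.75 and 0.67 in C7-143. C0 replicate 2 was the lowest library and C3-06 replicate 1 was apart from the other C3-06 libraries. The members together held 2.59% to 2.71% of the reads in BY47419, 2.06% to 2.25% in C0, 4.81% to 5.85% in C3-06, 5.15% to 6.14% in C5-63 and 6.31% to 6.96% in C7-143. A few abundant members carry much of this share: TDH3 and FBA1 averaged 18538 and 14808 CPM in C7-143. The share therefore does not describe the typical member.

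**Figure D3:**
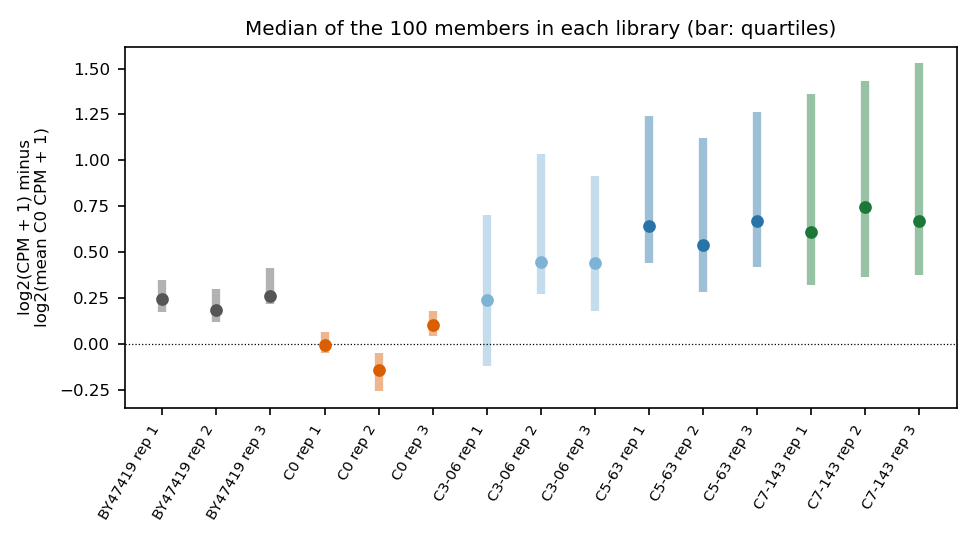
Median of log2(CPM + 1) minus log2(mean C0 CPM + 1) over the 100 members in each of the 15 libraries (points), with quartiles as bars, strains in the order BY47419, C0, C3-06, C5-63, C7-143. The C0 points lie between -0.14 and 0.10, all BY47419 points above them, and C3-06 replicate 1, at 0.24, lies below the other 2 C3-06 points.

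When each of the 9 libraries of BY47419, C0 and C7-143 was left out in turn, 77 to 98 of the 100 members stayed among the 100 highest scores, with 77 kept without C0 replicate 2. In all 9 repeats 49 members stayed. With TMM scaling, which sets libraries so that the bulk of genes does not shift, 69 members stayed, and 38 stayed with TMM scaling and in all 9 repeats. The 12 highest scores (OLE1, YLR157C-B, CIP1, TAT1, RKI1, RAD53, KTR5, IMP4, OLA1, RPC82, PMA1 and HHF2) stayed in every one of these. The median log2 difference of C0 minus BY47419 over all 5814 genes tested was 0.12 with library totals and -0.02 with TMM factors, and the members' median was -0.24 and -0.39 on the same scales.

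The members were grouped by their known roles after their values had been seen, which placed 71 of them; no test was run on these groups. Lipids and the cell surface open the list with the highest score. OLE1 (YGL055W, chrVII:398628-400160 in R64, + strand) encodes the Δ9 fatty acid desaturase. It had 591, 264 and 588 CPM in BY47419, 214, 182 and 283 CPM in C0, 1216, 1747 and 1444 CPM in C3-06, 1748, 2054 and 1522 CPM in C5-63, and 1904, 1596 and 1815 CPM in C7-143. BY47419 replicate 2 overlapped C0, and every evolved library stood above every BY47419 library. The C0 mean was 0.471 times the BY47419 mean, and the C7-143 mean was 7.82 times the C0 mean and 3.68 times the BY47419 mean.

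KTR5 (YNL029C, chrXIV:577205-578773, - strand), a member of the mannosyltransferase family that builds protein glycans, had 16.5, 15 and 17.5 CPM in BY47419 and 9.97, 10.4 and 13.2 CPM in C0. It then had 38.0, 37.6 and 39.7 CPM in C3-06, 35.6, 37.0 and 37.5 CPM in C5-63, and 39.5, 48.0 and 47.1 CPM in C7-143. Its strains fall into 3 levels without overlap: C0, BY47419 and the evolved strains. MCD4 and GPI16, which act in making and attaching the GPI anchors of surface proteins, had C7-143 means 3.84 and 1.90 times the C0 means.

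Among the transporters, PMA1 (YGL008C, chrVII:479910-482666, - strand), the plasma membrane proton pump, averaged 403 ± 39.8 CPM in BY47419, 307 ± 10.8 CPM in C0, 1717 ± 70.4 CPM in C3-06, 1231 ± 99.7 CPM in C5-63 and 1899 ± 105 CPM in C7-143 (SD, n = 3 each). Its order therefore has a dip at C5-63, where all 3 libraries (1157, 1344 and 1191 CPM) lay below all C3-06 libraries (1708, 1791 and 1651 CPM). TAT1 (YBR069C, chrII:376574-378433, - strand), a permease for tyrosine, tryptophan and other amino acids, had 60.5, 60.3 and 84.0 CPM in BY47419, 39.4, 38.8 and 43.9 CPM in C0, and 93.9, 131 and 121 CPM in C7-143. The TAT1 groups do not overlap in these strains. The antisense RNA gene TBRT shares 1824 bases with TAT1, and without a stated strand setting their reads cannot be told apart. BAP3, another amino acid permease, averaged 242 ± 43.3 CPM in BY47419, 176 ± 19.2 CPM in C0 and 226 ± 22.3 CPM in C7-143. ITR1, the inositol transporter, averaged 394 ± 65.7 CPM in C0, 340 ± 51.1 CPM in C3-06, 447 ± 20.2 CPM in C5-63 and 987 ± 55.0 CPM in C7-143.

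RKI1 (YOR095C, chrXV:503552-504328, - strand), the ribose-5-phosphate isomerase of the pentose phosphate pathway, had the lowest C0 level of the set relative to BY47419. It had 37.1, 15.8 and 32.1 CPM in BY47419, 8.42, 5.58 and 11 CPM in C0, 7.75, 11.7 and 8.64 CPM in C3-06, 6.11, 8.33 and 12.1 CPM in C5-63, and 11.7, 15.8 and 11.7 CPM in C7-143. The C0 mean was 0.294 times the BY47419 mean. The C7-143 mean was 1.57 times the C0 mean but 0.461 times the BY47419 mean, and all C7-143 libraries lay below the lowest BY47419 library, where the closest libraries both had 15.8 CPM.

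Of the 5 glycolytic members 4 are among the most abundant of the set. On the deposited FPKM scale, which divides by gene length, TDH3 averaged 18548 FPKM in C7-143 and 6553 FPKM in BY47419, more than any other member in either strain. FBA1, ENO1 and TDH1 came next in C7-143, at 13704, 4639 and 4060 FPKM, while PFK1 had 475 FPKM there. TDH3 and TDH1, copies of glyceraldehyde-3-phosphate dehydrogenase, had C0 means 0.816 and 0.815 times their BY47419 means. FBA1 (YKL060C, chrXI:326408-327487, - strand), the aldolase, had 1267, 1561 and 1444 CPM in BY47419 and 1059, 1148 and 1172 CPM in C0. It had 9823, 7678 and 6812 CPM in C3-06, 10605, 10731 and 8126 CPM in C5-63, and 16180, 13748 and 14495 CPM in C7-143. The step from C0 to C3-06 is thus the wide one for FBA1, whose C0 mean was 0.791 times the BY47419 mean. ENO1, an enolase, was highest in C3-06, at 7046 ± 2282 CPM, where replicate 1 had 9638 CPM and the other 2 had 6156 and 5342 CPM. PFK1, the α subunit of phosphofructokinase, averaged 508 ± 9.18 CPM in BY47419, 431 ± 21.0 CPM in C0 and 1409 ± 35.2 CPM in C7-143. In the list of 30 glycolysis and fermentation genes 27 could be scored and 8 had a score above 0; the 5 members are those with the highest scores. Their near copies TDH2 and ENO2 had means of 212 and 351 CPM in C0 against 140 and 326 CPM in BY47419. For TDH2 the log2 difference is positive with TMM factors too (0.45), but for ENO2 it turns to -0.04. TDH1 and TDH3 share at least 90.2% of their sequence with TDH2, and ENO1 shares 94.9% with ENO2, so their reads may have been split between copies.

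The 6 members of nitrogen, amino acid and one-carbon metabolism covered a narrower span, with C7-143 means 1.15 to 1.97 times the C0 means. GLN1 (YPR035W, chrXVI:642208-643320, + strand), the glutamine synthetase, had 1924, 1011 and 1829 CPM in BY47419, 1220, 870 and 1579 CPM in C0, 2153, 3306 and 3284 CPM in C3-06, 3245, 3228 and 3454 CPM in C5-63, and 2152, 2536 and 2548 CPM in C7-143. Replicate 2 was the low library in BY47419 and in C0, and the 2 strains overlapped. LEU2 (YCL018W, chrIII:91324-92418, + strand), the isopropylmalate dehydrogenase of leucine synthesis, is listed as deleted in all strains. It nonetheless had 155, 197 and 214 CPM in BY47419, 161, 140 and 183 CPM in C0, 340, 245 and 277 CPM in C5-63, and 268, 248 and 257 CPM in C7-143. In C3-06 it had 0 of 60847082 reads. The labels do not state whether LEU2 was put back as a marker. Its place in the set rests on the 2 strains that overlap, BY47419 and C0, and it left the set without BY47419 replicate 3.

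Of the 11 histone genes 4 are members, encoding H4, H3, H2B and the linker histone H1. HHF2 (YNL030W, chrXIV:576727-577038, + strand) and HHT2 (YNL031C, chrXIV:575640-576050, - strand), the H4 and H3 genes of 1 locus, are transcribed away from each other across 676 bases. KTR5 follows HHF2 after 166 bases on the other strand, and these 3 genes are the only neighbours among the 100. HHF2 had 237, 183 and 241 CPM in BY47419, 172, 140 and 196 CPM in C0, 280, 475 and 434 CPM in C3-06, 508, 519 and 651 CPM in C5-63, and 521, 600 and 650 CPM in C7-143. BY47419 replicate 2 lay inside the C0 range, and C3-06 replicate 1 lay far below its partners. HTB2, an H2B gene, averaged 40.5 ± 1.49 CPM in BY47419, 36.1 ± 7.05 CPM in C0, 136 ± 46.2 CPM in C3-06, 253 ± 62.0 CPM in C5-63 and 294 ± 40.6 CPM in C7-143, a fold of 8.15 between C7-143 and C0. HHO1, the linker histone, had 140 ± 19.9 CPM in C7-143 against 77.7 ± 2.38 CPM in C0. Outside the set, the histone genes HTA1, HHT1 and CSE4 had lower means in C7-143 than in C0 (168 against 391, 492 against 553 and 51.0 against 55.4 CPM). HTA2, HTB1, HHF1 and HTZ1 had higher ones, though the log2 fold change of HHF1 turned to -0.13 with TMM factors. The other copies HHF1, HHT1 and HTB1 had C0 means of 326, 553 and 706 CPM against BY47419 means of 289, 524 and 665 CPM. With TMM factors the log2 fold change of C0 over BY47419 was 0.02 for HHF1 and turned to -0.08 for HHT1 and -0.06 for HTB1. HHF2, HHT2 and HTB2 are 97.4%, 93.6% and 88.8% identical to those copies over their aligned length, and reads of the copies may have been split.

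The promoters of 4 histone, cell cycle and DNA damage members are shown because the letters of late G1 motifs can be read in them. Each is the 300 bases before the start codon in the RefSeq R64 genome, 5′ to 3′ on the gene's strand, with MCB (ACGCGT, bound by MBF) and SCB (CGCGAAA, bound by SBF, or TTTCGCG on the other strand) in capitals. RAD53 is at chrXVI:264193-264492 (- strand), RTT107 at chrVIII:402666-402965 (+ strand), HHF2 at chrXIV:576427-576726 (+ strand) and HSL1 at chrXI:248620-248919 (+ strand).
RAD53: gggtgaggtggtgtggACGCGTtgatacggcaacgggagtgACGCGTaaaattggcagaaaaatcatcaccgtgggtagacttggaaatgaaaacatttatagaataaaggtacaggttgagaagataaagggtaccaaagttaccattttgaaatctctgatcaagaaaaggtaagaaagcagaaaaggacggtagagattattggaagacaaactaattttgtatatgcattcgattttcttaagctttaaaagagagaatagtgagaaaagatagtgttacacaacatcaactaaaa
RTT107: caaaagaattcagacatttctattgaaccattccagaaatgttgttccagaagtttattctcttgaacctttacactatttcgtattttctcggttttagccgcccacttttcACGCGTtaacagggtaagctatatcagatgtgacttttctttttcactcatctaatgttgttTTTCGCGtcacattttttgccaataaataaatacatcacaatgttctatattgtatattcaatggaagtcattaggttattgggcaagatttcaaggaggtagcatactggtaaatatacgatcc
HHF2: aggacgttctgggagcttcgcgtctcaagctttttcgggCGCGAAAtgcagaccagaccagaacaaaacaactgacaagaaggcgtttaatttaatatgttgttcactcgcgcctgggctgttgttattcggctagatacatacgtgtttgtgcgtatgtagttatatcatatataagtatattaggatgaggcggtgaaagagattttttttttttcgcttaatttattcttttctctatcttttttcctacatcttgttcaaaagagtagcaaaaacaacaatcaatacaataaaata
HSL1: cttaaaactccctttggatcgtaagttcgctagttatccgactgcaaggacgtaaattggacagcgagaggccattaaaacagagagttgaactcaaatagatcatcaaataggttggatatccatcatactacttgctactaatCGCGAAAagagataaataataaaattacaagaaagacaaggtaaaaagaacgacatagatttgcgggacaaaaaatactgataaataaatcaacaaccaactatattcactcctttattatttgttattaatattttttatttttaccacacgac
RAD53 holds 2 MCB matches, RTT107 holds an MCB and an SCB match, and HHF2 and HSL1 hold an SCB match each. Both strands were searched for both motifs, which share the letters CGCG. MCB was found in 7 members, among them CIP1, RAD53, RTT107, PDS5, FCY2 and MSH6, or 7.0%, against 3.5% of all 5979 windows of this length. SCB was found in 7 members (HHF2, RTT107, HSL1, MCD4, YCS4, HHO1 and SWE1), or 7.0%, against 3.96% of all windows. No test was run on these shares, and a match is not a bound site.

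The cell cycle members include CLB2 (YPR119W, chrXVI:771653-773128, + strand), a B-type cyclin of mitosis. CLB2 had 13.6, 13.9 and 12.4 CPM in BY47419, 12.1, 8.92 and 10.9 CPM in C0, 13.4, 20.0 and 18.2 CPM in C3-06, 41.1, 30.9 and 45.4 CPM in C5-63, and 41.6, 43.9 and 52.0 CPM in C7-143. The first 3 strains lie close together and the last 2 lie apart above them. SWE1, the kinase that holds the cyclin-dependent kinase Cdc28 inactive, averaged 20.1 ± 1.51 CPM in BY47419, 18 ± 1.59 CPM in C0, 52.8 ± 6.06 CPM in C3-06, 77.4 ± 11.4 CPM in C5-63 and 101.2 ± 12.9 CPM in C7-143. HSL1 (YKL101W, chrXI:248920-253476, + strand), the kinase that promotes removal of Swe1, had 40.7, 46.0 and 43.2 CPM in BY47419, 39.8, 30.8 and 38.9 CPM in C0, 71.9, 108 and 92.2 CPM in C3-06, 141, 131 and 163 CPM in C5-63, and 254, 281 and 280 CPM in C7-143. In the order C0, C3-06, C5-63 and C7-143, each HSL1 group stood wholly above the one before. CIP1, an inhibitor of G1 cyclin-dependent kinase, had a high score of 0.73 but overlapping groups: 76.2, 105 and 164 CPM in BY47419, 47.9, 46.8 and 112 CPM in C0, and 105, 105 and 155 CPM in C7-143. WHI5, the repressor of the G1 to S transition, averaged 42.3 ± 1.75 CPM in BY47419, 36.6 ± 2.99 CPM in C0 and 43.8 ± 2.77 CPM in C7-143.

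The 6 members placed under DNA damage response, repair and chromosome structure all had their lowest mean in C0 and their highest in C7-143. RAD53 (YPL153C, chrXVI:261727-264192, - strand), the checkpoint kinase, had 21.2, 20.4 and 22.5 CPM in BY47419, 13.4, 10.8 and 18.2 CPM in C0, 15.5, 22.7 and 22.4 CPM in C3-06, 31.1, 28.7 and 35.5 CPM in C5-63, and 37.1, 39.4 and 42.5 CPM in C7-143. The C0 mean was 0.661 times the BY47419 mean without overlap, and the C7-143 mean was 2.80 times the C0 mean. RTT107, a scaffold protein at damaged replication forks, averaged 24.8 ± 2.36 CPM in BY47419, 19.3 ± 2.26 CPM in C0, 33.2 ± 5.24 CPM in C3-06, 39.5 ± 7.85 CPM in C5-63 and 76.8 ± 14.8 CPM in C7-143. PDS5, which regulates cohesin, had 70.5 ± 13.6 CPM in C7-143 against 19.5 ± 2.38 CPM in C0. RAD9, the checkpoint adaptor, had 44.4 ± 2.19 CPM in C7-143 against 34.1 ± 6.23 CPM in C0.

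**Figure D4:**
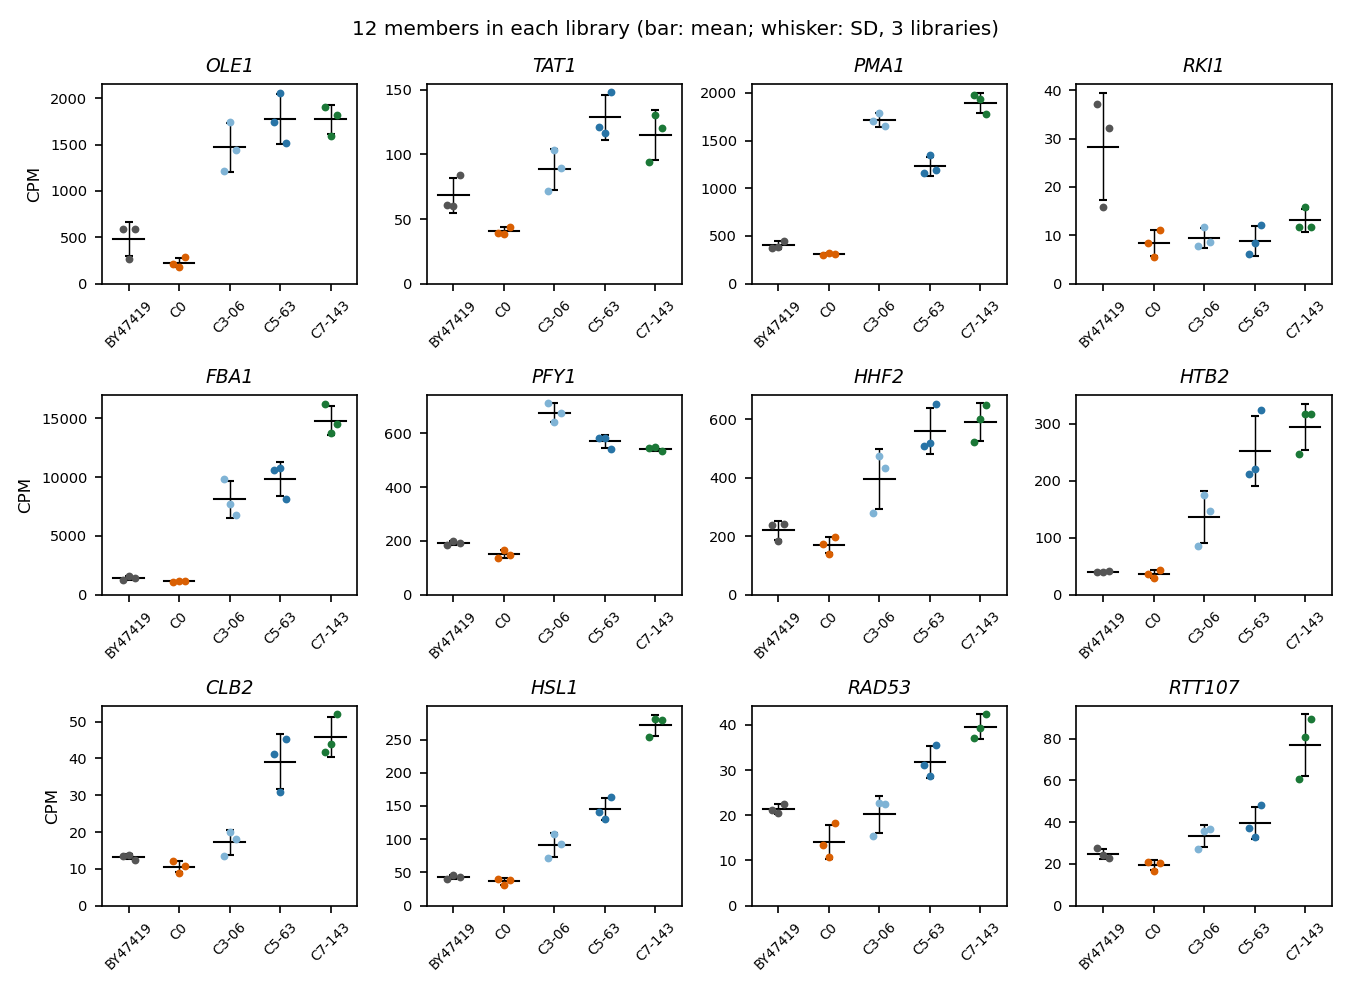
CPM of 12 members in the 15 libraries (points, linear axes from 0), with the strain mean as a line and the SD of 3 libraries as a whisker, strains in the order BY47419, C0, C3-06, C5-63, C7-143. OLE1, PMA1, FBA1 and PFY1 step up at C3-06, CLB2 steps up at C5-63, and HSL1 and RTT107 are highest in C7-143. RKI1 stays below its BY47419 mean in the other strains, with a C7-143 mean 1.57 times its C0 mean.

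Members of ribosome assembly and RNA metabolism had C0 means 0.711 to 0.889 times their BY47419 means. IMP4, a protein of the small subunit processome, averaged 12.6 ± 1.54 CPM in BY47419, 8.99 ± 2.67 CPM in C0 and 22.4 ± 4.18 CPM in C7-143, and C0 replicate 3 (12 CPM) overlapped BY47419. RPC82, a subunit of RNA polymerase III, averaged 54.7 ± 6.29 CPM in BY47419, 41.2 ± 10.3 CPM in C0 and 65.6 ± 2.51 CPM in C7-143. RPS0A (YGR214W, chrVII:920575-921788, + strand), a protein of the small ribosomal subunit, had the largest ratio of C7-143 to C0 in the set, 21.9. It had 24.8, 23.7 and 23.2 CPM in BY47419, 18.1, 20.8 and 22.4 CPM in C0, and 467, 487 and 388 CPM in C7-143. It is the 1 member among 138 ribosomal protein genes listed. PFY1 (YOR122C, chrXV:552298-552887, - strand), the actin-binding profilin, averaged 193 ± 8.56 CPM in BY47419, 151 ± 15 CPM in C0, 677 ± 35.1 CPM in C3-06, 570 ± 23.2 CPM in C5-63 and 542 ± 7.68 CPM in C7-143. OLA1, a P-loop ATPase, had 670 ± 56.3 CPM in C7-143 against 272 ± 32.1 CPM in C0.

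YLR157C-B (chrXII:476333-481601, - strand), annotated in R64 as the gag-pol fusion protein of a retrotransposon, ranked second. It had 11.1, 12.5 and 21.3 CPM in BY47419, 12.6, 5.47 and 7.44 CPM in C0, and 33.2, 30.4 and 32.7 CPM in C7-143. C0 replicate 1 lay inside the BY47419 range. YLR157C-B and the other retrotransposon member, YLR227W-B, each have 28 other genes of at least 80% identity in the table and overlap a shorter gene on the same strand, so their counts are uncertain.

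Regulators of transcription among the members kept to no single pattern. MGA1, which resembles heat shock transcription factors, had 45.3, 60.2 and 50.2 CPM in BY47419, 23.4, 27.4 and 21.8 CPM in C0, 17.2, 18.9 and 17.6 CPM in C3-06, 28.5, 31.7 and 30.6 CPM in C5-63, and 29.7, 25.9 and 33.8 CPM in C7-143. Every BY47419 library lay above every other, and C0 and C7-143 overlapped. COM2 averaged 33.5 ± 9.71 CPM in BY47419, 25.7 ± 8.18 CPM in C0, 115 ± 34.9 CPM in C3-06, 162 ± 17.0 CPM in C5-63 and 99.8 ± 9.76 CPM in C7-143. RAP1, the activator of ribosomal protein genes and a telomere protein, averaged 74.2 ± 2.95 CPM in BY47419, 65.4 ± 4.95 CPM in C0, 92.7 ± 5.59 CPM in C3-06, 100.9 ± 2.00 CPM in C5-63 and 121 ± 11.9 CPM in C7-143. SPT15, the TATA-binding protein, covered a much narrower range, with 141 ± 4.39 CPM in C7-143 against 119 ± 6.57 CPM in C0. Members of small ranges also include the reductase GLR1 and the peroxidase HYR1, whose C7-143 means were 1.19 and 1.32 times their C0 means.

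The 1 comparison whose libraries did not choose the members is C5-63 against C3-06, one processed strain against the other. Over the whole table edgeR's quasi-likelihood test called 1151 genes higher in C5-63 (19.8% of 5814 tested) and 1221 lower (21.0%) at a Benjamini-Hochberg adjusted p below 0.05. Of the 100 members, all of which passed the filter on low counts, 35 were called higher and 6 lower. The median log2 fold change was 0.15 over the members (quartiles -0.02 and 0.40) and -0.01 over all genes tested. All 3 C5-63 libraries lay above all 3 C3-06 libraries in CPM for 53 members, against 37.5% of all genes tested, and below them for 4, against 18.3%. With library totals in place of TMM factors, the split over all genes became 1546 higher and 761 lower, and that over the members 44 higher and 4 lower. Without C3-06 replicate 1, the library with low members, 28 members were called higher and 6 lower.

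CLB2 had the lowest adjusted p among the members with reads in both strains. It averaged 39.1 ± 7.46 CPM in C5-63 and 17.2 ± 3.41 CPM in C3-06 (SD, n = 3 each), a log2 fold change of 1.08 ± 0.14 (SE) with an adjusted p of 3.38e-05 in edgeR. HOF1, a protein of the cytokinetic ring, averaged 50.9 ± 6.06 CPM in C5-63 and 28.2 ± 4.62 CPM in C3-06 (log2 fold change 0.75 ± 0.10, edgeR adjusted p 7.28e-05). In brackets below are log2 fold changes with their SE. VTC4, the vacuolar polyphosphate polymerase, had 172, 148 and 170 CPM in C5-63 against 78.1, 107 and 109 CPM in C3-06 (0.64 ± 0.09, edgeR adjusted p 0.000122). YNL108C had 59.8, 55.2 and 55.6 CPM in C5-63 against 28.9, 34.7 and 35.9 CPM in C3-06 (0.68 ± 0.10, edgeR adjusted p 0.000122). WHI3, an RNA-binding protein that delays the G1 cyclin Cln3, averaged 91.8 ± 10.7 CPM in C5-63 and 59.7 ± 8.19 CPM in C3-06 (0.52 ± 0.08, edgeR adjusted p 0.000199). None of these groups overlapped. LEU2, at 0 reads in C3-06, was at least 5820-fold higher in C5-63, counted against the 3 reads that a count of 0 over the C3-06 libraries allows.

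Of the 10 cell cycle members 8 were called higher and 0 lower, as counted in the group formed after the values had been seen. Over all genes tested, 19.8% were called higher and 21.0% lower, and the counts below are to be read beside these shares. Beside CLB2, HOF1 and WHI3 they are HSL1 (log2 fold change 0.58), YOX1, a repressor of early cell cycle genes (0.66), ASE1, which bundles spindle microtubules (0.49), SWE1 (0.45) and AIM44 (0.38). Of the 28 genes of the CLB2 cluster and mitosis list, 18 were called higher and 2 lower, with a median log2 fold change of 0.28. That list holds CLB2, HOF1, SWE1 and ASE1, and 12 of its 26 genes that could be scored had a score above 0. Of the 11 histone genes, 6 were called higher and 0 lower, among them the members HTB2 (0.80 ± 0.19, edgeR adjusted p 0.0043), HHO1 (0.45 ± 0.12, edgeR adjusted p 0.00886) and HHT2 (0.33 ± 0.11, edgeR adjusted p 0.024). HHF2 was not called (0.40 ± 0.16, edgeR adjusted p 0.0564). RAD53 was the 1 of 6 DNA damage and chromosome members called, with 31.8 ± 3.45 CPM in C5-63 and 20.2 ± 4.09 CPM in C3-06 (0.56 ± 0.14, edgeR adjusted p 0.00506).

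Of the 9 transcription members 7 were called higher and 0 lower, against 19.8% and 21.0% of all genes tested. This group too was formed after the values had been seen. Among the 7 were MGA1 (0.65 ± 0.12, edgeR adjusted p 0.000488) and MSN2, the activator of stress genes (0.51 ± 0.08, edgeR adjusted p 0.000254). MSN2 averaged 86.8 ± 6.90 CPM in C5-63 and 56.7 ± 6.84 CPM in C3-06. Of the 29 Msn2-Msn4 stress genes, 0 were called higher and 26 lower in the same comparison. TAT1 had 121, 116 and 149 CPM in C5-63 against 72.0, 104 and 89.8 CPM in C3-06 (0.44 ± 0.14, edgeR adjusted p 0.0188), and RPS0A averaged 254 ± 25.5 CPM in C5-63 and 152 ± 38.4 CPM in C3-06 (0.64 ± 0.13, edgeR adjusted p 0.00117). No carbon metabolism member of 6 was called: FBA1 stood at 0.17 ± 0.17 and TDH3 at -0.17 ± 0.15 (edgeR adjusted p 0.457 and 0.394). OLE1, the highest score of all, was not called either (0.18 ± 0.26, edgeR adjusted p 0.596).

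The 6 members called lower are spread over several roles, and transport and ribosome assembly hold members called in both directions. SDA1, needed for assembly of the large ribosomal subunit, had 19.0, 18.4 and 31.2 CPM in C5-63 against 28.6, 38.1 and 40.1 CPM in C3-06 (-0.74 ± 0.17, edgeR adjusted p 0.0027), with overlap between the groups. HCA4, an RNA helicase of pre-ribosomal RNA processing, averaged 29.2 ± 5.75 CPM in C5-63 and 41.0 ± 8.39 CPM in C3-06 (-0.59 ± 0.15, edgeR adjusted p 0.006), also with overlap. PMA1 fell by 0.58 ± 0.10 on the log2 scale (edgeR adjusted p 0.000498). PFY1 averaged 570 ± 23.2 CPM in C5-63 and 677 ± 35.1 CPM in C3-06 (-0.35 ± 0.09, edgeR adjusted p 0.00518). GLR1, the glutathione reductase, and YNL190W had log2 fold changes of -0.24 ± 0.06 and -0.25 ± 0.08 (edgeR adjusted p 0.0076 and 0.0225), and neither was called with library totals. The YNL190W groups overlapped in CPM as well.

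**Figure D5:**
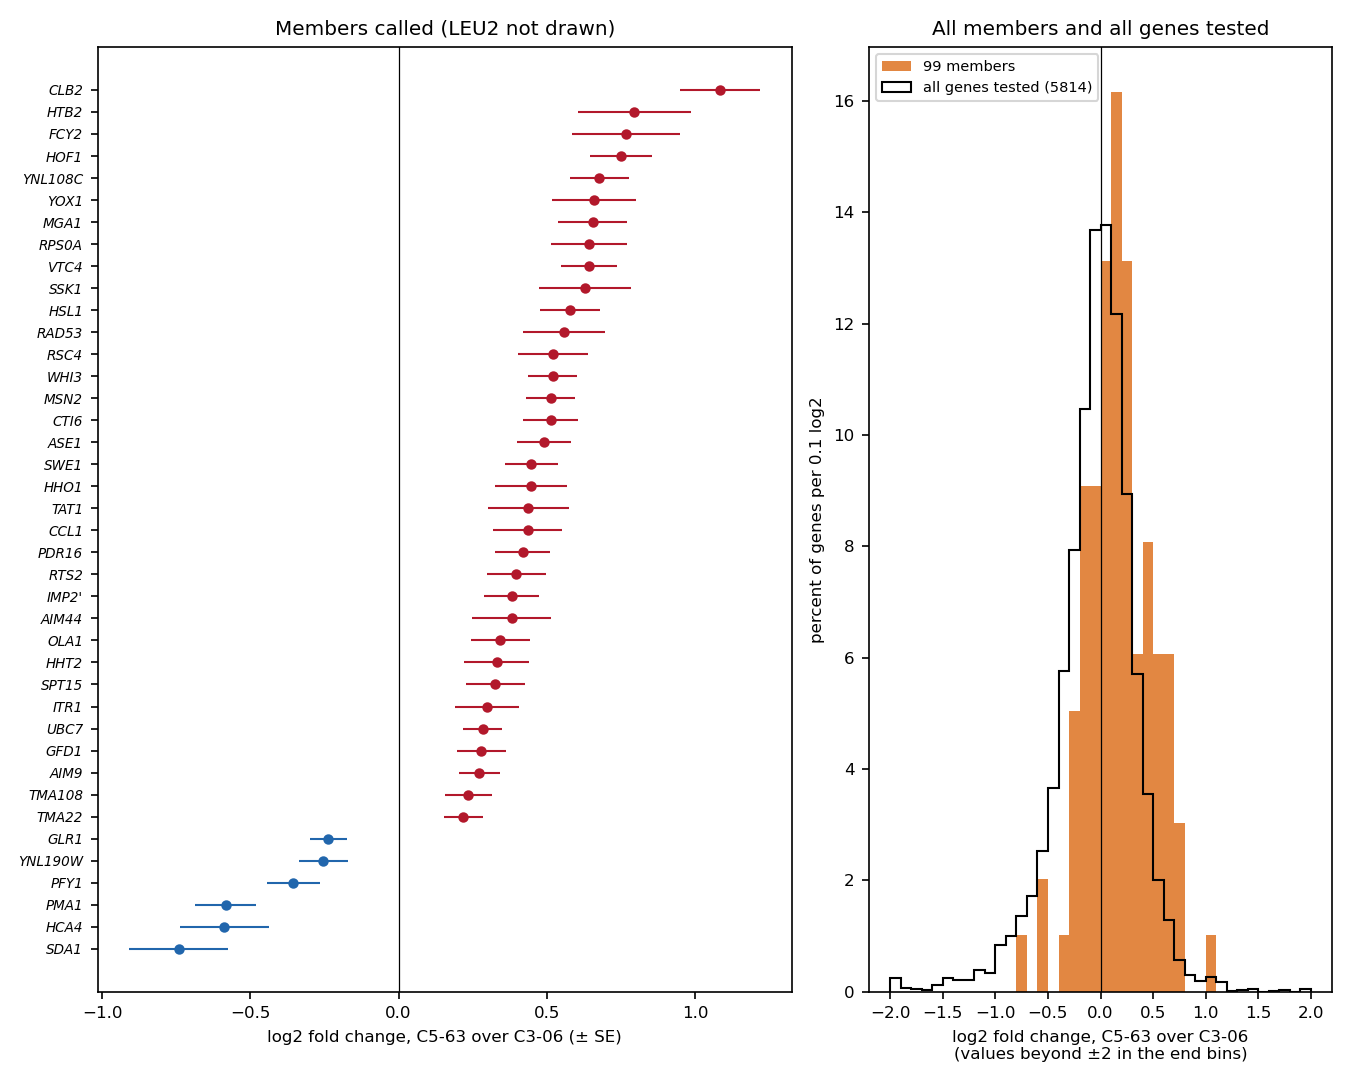
Left, log2 fold change of C5-63 over C3-06 with its SE for the members called by edgeR (red higher, blue lower), except LEU2, which had 0 reads in C3-06; right, the distribution over the other 99 members (filled) and over all 5814 genes tested (line), in percent of genes per 0.1 log2. The called members run from SDA1 at -0.74 to CLB2 at 1.08, and the members' distribution is shifted to the right of that of all genes.

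The members are spread over the genome. Chromosomes XVI, XIV and V held 15, 13 and 10 of them, or 3.2%, 3.27% and 3.48% of the genes there, and chromosomes I and VI held 0. Their median coding length was 1522 bases, against 1308 bases for all genes that could be scored, and their median level was 48.4 FPKM, against 67.1 FPKM. Among other motifs, searched on both strands, the stress element AGGGG was in 21.0% of the members' promoters and 22.1% of all, the forkhead motif GTAAACA in 10.0% and 7.02%, and Yap1's TTAGTAA in 14% and 7.81%. Of the 59 gene lists, 37 members were in at least 1, and only glycolysis, histones and the CLB2 cluster held 3 or more. Near copies were sought over whole gene spans, introns included, as 1 alignment of at least 80% identity over at least 80% of the member. This can miss copies of genes with introns, such as RPS0A. Another gene of the table was found in this way for 11 members, whose reads may have been split with it: ENO1, TDH1, TDH3, HHF2, HHT2, HTB2, YLR157C-B, YLR227W-B, PMA1 (84.4% identical to PMA2), FCY2 (86.7% to FCY22) and COS2 (the same as COS3). How the authors' counting treated such reads is not given in the sources used here. Over the 5 strain values, 36 members correlated at r of at least 0.9 with the members' mean profile and 0 below 0. That profile is built from the same members, so these counts describe their choice. Among genes outside the set the nearest to that profile were YRF1-3 (r = 0.97), IPA1 (0.97) and LYS2 (0.96), over 5 points that share their libraries with the choice of the members.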

How the data were processed

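Per the file headers, the authors deposited raw read counts and FPKM values of 5980 genes for 15 samples. The submitters' processing notes name HISAT2 but no version. The read counter, the strand setting and the build are not given in the sources. Of the gene identifiers 5977 are in the R64 annotation and 5972 have the same start and end there, so R64 positions are given. FPKM, as deposited, served to compare levels between genes. Cells were harvested at an optical density of about 3, and RNA came from aliquots of 50 mL, per the labels' protocols.

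Samples were grouped by strain. Membership and the descriptive levels use CPM from the deposited counts over each library's total, with a pseudocount of 1. Genes were tested with edgeR 4.0.16 under R 4.3.3, after filterByExpr with a minimum count of 10 and a total of 15, with TMM factors and a robust quasi-likelihood fit of all 15 libraries with strain as factor, two-sided, adjusted by Benjamini-Hochberg, called at 0.05. The fit was also run on simulated data drawn from the C3-06 mean levels with the fit's own spread. Such data hold no broad differences between strains, so this run cannot vouch for the calls made here. A count of 0 allows up to 3 reads; this covers counting error only. Alternatives were DESeq2 1.42.0, RLE factors, library totals alone, no filter or 5 CPM in 3 libraries, only the 2 strains compared, a replicate block, an adjusted p below 0.01 and each library left out. Promoters are the 300 bases before the start codon in R64, searched for 32 motifs. The members, gene lists, motifs and role groups were chosen with earlier results of these data known. Genes named are the 12 highest scores, the 6 lowest adjusted p in each direction, the 5 most abundant members, those at the threshold, neighbours and up to 5 members of each list holding at least 3; others named were chosen after their values were seen. Replicate numbers did not pair C5-63 with C3-06: same-numbered libraries correlated at -0.16, -0.43 and 0.331 in their deviations from the strain means. The values of 1 member by name are not reported here.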

Additional observations from a re-analysis of the deposited data

How the results depend on the processing

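In C5-63 against C3-06 the members' median kept its sign under each alternative run. So did the 6 members with the lowest adjusted p in each direction, while other named members were not followed. The balance over all genes turned: more were called lower with TMM factors, and more higher with RLE factors (1288 higher, 1138 lower), DESeq2 (1356 and 1202), library totals (1546 and 761) and without C5-63 replicate 3 (1030 and 990). At an adjusted p below 0.01, 703 genes were called higher and 801 lower. With library totals alone the members' median log2 fold change was 0.256; with RLE factors and with DESeq2 it was 0.175. Leaving out each library gave 821 to 1135 genes higher and 879 to 1245 lower, 28 to 35 members higher and 5 to 7 lower, and a median of 0.123 to 0.187. With the replicate block 1176 genes were called higher and 1238 lower, 37 members higher and 6 lower, with a median of 0.148; the block changed no count by over 1.5 times. GLR1 lost its call with library totals, and YNL190W with library totals, at the stricter threshold and in 5 of 6 repeats without a library. The set kept 97 to 98 members with other pseudocounts, 98 with mean log values, and 90 and 74 with minimum levels of 5 and 30 CPM. The causes were not tested. Low levels call for care with RKI1, YLR157C-B, IMP4, YCS4, DUS1 and COS2, which had under 10 CPM on average in C0. The C0 libraries gave 9.61 ± 5.10 CPM for COS2 and 8.34 ± 2.72 CPM for RKI1, but 8.77 ± 1.05 CPM for YCS4 (SD).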
